A study of Mus musculus with 2 samples.

Results

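*Meg3* ChIRP-seq peaks inside annotated genes or at their ends, away from start sites and outside L1 and LTR retrotransposons, were examined. The cells were connective tissue cells derived from mouse embryos, mouse embryonic fibroblasts (MEFs). A peak was included when HOMER placed its centre in an intron, an exon, a UTR, a non-coding transcript or the window around a transcription termination site (TTS), when that centre lay over 1000 bp from the nearest transcription start site (TSS), when no L1 or LTR repeat was named for it, and when it was not on chromosome 15. These limits kept 242 of the 2763 deposited peaks, 116 of 1554 from β-actin KO MEFs and 126 of 1209 from WT MEFs. The WT MEFs carried both β-actin alleles and the KO MEFs lacked β-actin, and according to the study's text the KO cells came from an embryonic lethal mutant and keep a functional cytoplasmic cytoskeleton with more α-smooth muscle actin. A supplementary figure legend of the study labels the KO cells NM1 KO, under a title that names β-actin. WT and KO MEFs were crosslinked in the same way, in glutaraldehyde (1%, 10 min). The authors pooled the reads of 4 libraries per genotype, 2 from each probe pool, before peak calling. There was therefore 1 list per genotype with no replicate, and every test below takes peaks as units and compares lists, not cultures. Peaks are not independent of each other, and intervals cover the counting of peaks only. The lists carry no read depth, and the score of every peak is 1, so a strong peak cannot be told from a weak one. No cell-type marker could be checked, since peak lists hold no expression.

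*Meg3* is an imprinted long non-coding RNA that is made from the maternal chromosome, stays largely in the nucleus and is known to associate with Polycomb repressive complex 2, which methylates histone H3 at lysine 27. In ChIRP, biotinylated DNA probes that pair with an RNA are hybridized to crosslinked chromatin fragments, which are captured on beads so that their DNA can be sequenced. A peak in a gene body can lie in an intron, which is removed from the transcript by splicing, or in an exon, which stays in it, but the recovered material is read as DNA, and the peak by itself does not say which strand or which molecule it came from.

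The DNA under the peaks was first set against the probes, since genomic DNA that resembles a probe could pair with it directly. The longest exact match to any of the 16 probes of 20 bases, on either strand, had a median of 8 bases in both lists and reached 12 bases in 1 KO and 2 WT peaks. The intergenic peaks outside L1 and LTR had the same median of 8 bases and the same highest value of 12 bases, reached by 1 KO peak and by no WT peak. The longest matches are shown with 30 bases of GRCm38 around them, plus strand, the matched bases in capitals. They lay in *Myo9b*, an unconventional myosin (chr8:71291579-71291608, intron, KO, probe Meg3-4), in *Gm8909* (chr17:36166067-36166096, intron, KO, 11 bases of probe Meg3-7), in *Pkd1*, which encodes polycystin (chr17:24573439-24573468, exon, WT, probe Meg3-10), and in *2410141K09Rik* (chr13:66430345-66430374, gene end, WT, probe Meg3-13). The *Pkd1* match equals the 5′ end of its probe as written, and the *Myo9b* match is the reverse complement of 12 bases inside its probe.
Myo9b: acatgtctgGTGTTCATCTGCccttcaggt
Gm8909: agagggaatcCACATGAGCCAgtgggtcaa
Pkd1: agcatctgtGTGGAACCTGAGatacgtaac
2410141K09Rik: tatattcatGCAGGTTTTCTGccatatgtg
Probe Meg3-4: ctagcagatgaacacgagca
Probe Meg3-10: gtggaacctgagcacaacag

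Peaks within all the limits given at the start made up 7.46% of the KO list (116 of 1554, Wilson 95% interval 6.26 to 8.88%). In the WT list they made up 10.4% (126 of 1209, 8.82 to 12.3%). The denominators were the whole lists, in which peaks on chromosome 15 and peaks near a TSS are counted. The KO minus WT difference was -2.96 percentage points (Fisher's exact test over peaks, two-sided, p = 0.00667; p = 0.0400 after Benjamini-Hochberg adjustment over 6 shares). In the same Fisher's exact test the call was lost when peaks within 1000 bp of each other were merged (adjusted p = 0.130), when chromosome 19 was left out (adjusted p = 0.254) and when L1 and LTR peaks were kept in (24.8% against 25.5%, adjusted p = 0.840). It was also lost without the 7 WT peaks of *Myo1c*, described further on (7.46% against 9.90%, Fisher's exact test, adjusted p = 0.165), an alternative added once the values were known. With chromosome 15 kept the difference was larger (10.04% against 15.7%, adjusted p = 5.98e-05, Fisher's exact test). The L1 family was named at 244 of the 492 KO gene-body peaks and at 156 of the 422 WT gene-body peaks.

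Introns held most of these peaks in both lists. In KO, 71 of 116 peaks (61.2%, 52.1 to 69.6%) were intronic, and in WT 81 of 126 (64.3%, 55.6 to 72.1%), a KO minus WT difference of -3.08 percentage points within the counting error (Fisher's exact test, p = 0.690, adjusted p = 1). Exonic peaks, which here include UTRs and non-coding transcripts, numbered 34 in KO (29.3%, 21.8 to 38.2%) and 39 in WT (30.95%, 23.5 to 39.5%; Fisher's exact test, p = 0.889, adjusted p = 1). The exonic group was made of 26 coding exon, 6 3′ UTR, 1 5′ UTR and 1 non-coding peak in KO, and of 31 coding exon, 6 3′ UTR and 2 non-coding peaks in WT. HOMER's exon category can also hold untranslated bases, so these numbers follow its labels. Peaks at gene ends (TTS) numbered 11 in KO (9.48%, 5.38 to 16.2%) and 6 in WT (4.76%, 2.20 to 10.0%), a difference of 4.72 percentage points that did not pass the test (Fisher's exact test, p = 0.208, adjusted p = 0.625).

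**Figure D1:**
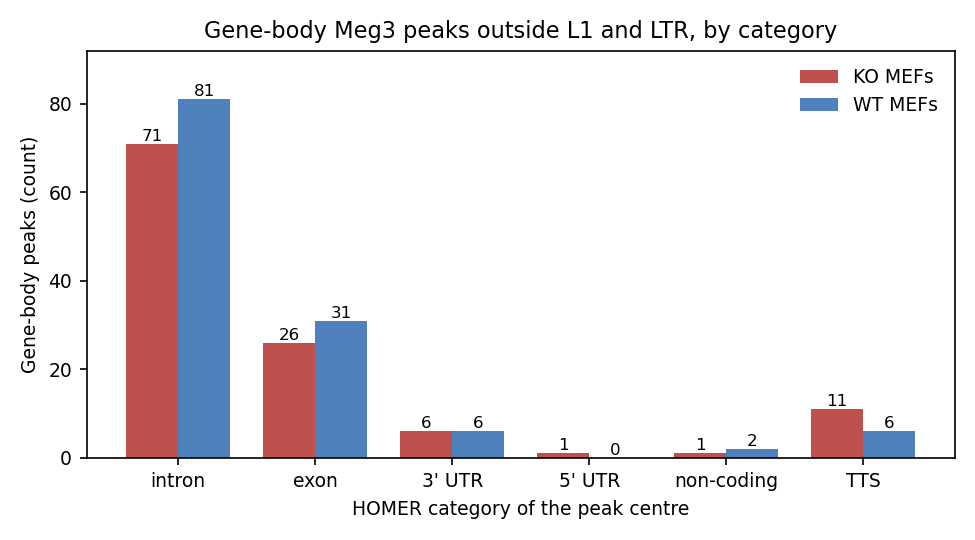
Number of gene-body peaks outside L1 and LTR in each HOMER category, in KO (red) and WT (blue) MEFs, 1 list each without replicates. Introns hold 71 KO and 81 WT peaks, coding exons 26 and 31, and gene ends (TTS) 11 and 6.

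Exons make up 6.93% of the 999.7 Mb that curated RefSeq transcripts cover on the 19 chromosomes used. The centres of 10 KO and 4 WT peaks lay outside these transcripts, including gene-end peaks such as those of *Cabp2* and *Ldb1*. By the RefSeq annotation at the peak centre, 37 KO peaks (31.9%) and 41 WT peaks (32.5%) fell on an exon. This is given as a description, because the rule takes out L1 and LTR peaks, HOMER names repeats only for intron and intergenic peaks, and the covered bases were not cleared of repeats. Exonic peaks were often whole inside exons: 18 of 34 in KO and 25 of 39 in WT had every base in exon sequence, and the others crossed an exon border. The exon at the peak was long, with a median of 679.5 bp in KO and 813 bp in WT against 132 bp over all exons of coding transcripts. A long exon holds more bases for a peak centre to fall on, which was not corrected for. The last exon held 13 of the 34 KO and 19 of the 39 WT exonic peaks.

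Distances here are to the nearest TSS, which can be that of another gene. Exonic peaks farthest from any TSS lay in *Fez2* (3′ UTR of exon 8 of 8, 48834 bp), *Pkd1* (exon 23 of 46, 30480 bp), *Cacna1a*, a voltage-gated calcium channel (exon 46 of 47, 24046 bp), and *Adgra2*, an adhesion G protein-coupled receptor (exon 6 of 19, 18054 bp) in KO. At *2700054A10Rik* the KO gene-end peak lay 34747 bp upstream of the nearest TSS. In WT, the corresponding peaks were at the gene end of *Sord*, sorbitol dehydrogenase (30412 bp), in the 3′ UTR of *Manbal* (28214 bp upstream of the TSS of a neighbouring gene), in *Pkd1* (exon 15 of 46, 23480 bp), in *Itprip* (exon 2 of 2, 21464 bp) and in *Itpr3*, an inositol trisphosphate receptor of the endoplasmic reticulum (exon 45 of 58, 18850 bp). *Pkd1* thus appeared in both lists, with peaks 163 and 160 bp wide in different exons.

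The introns at intronic peaks had a median length of 7208 bp in KO and 5974 bp in WT, against 1412 bp over the introns of coding transcripts. Longer introns hold more bases for a peak to fall on: the base in the middle of all intronic bases, ordered by intron length, lies in an intron of 26520 bp. The first intron held 12 of 71 KO (16.9%, 9.94 to 27.3%) and 17 of 81 WT intronic peaks (20.99%, 13.5 to 31.1%; Fisher's exact test, p = 0.543, adjusted p = 1). Along the transcript, counted from its start, intronic peaks had a median position of 58.2% in KO and 54.3% in WT, and exonic peaks of 68.1% and 68.2%. The requirement of a distance from the TSS removes peaks at the start, so these positions are not free of the rule. The intronic peaks farthest from a TSS were in *Nlgn1*, a postsynaptic adhesion protein (421842 bp), and *Myo16*, an unconventional myosin (357202 bp), in KO, and in *Glis3*, a zinc finger transcription factor (252130 bp upstream of the nearest TSS), and *Pard3*, a cell polarity scaffold (244828 bp), in WT. Some intronic peaks reached into exons: 14 in KO and 16 in WT held at least 1 exonic base.

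Just inside the distance limit were *Ltbp3* in KO (1032 bp) and *Yif1a* in WT (1009 bp). Just outside it were *Ctsf* in KO (942 bp) and *Cd300c* in WT (970 bp).

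The peaks were richer in G and C than gene bodies as a whole. The median G and C content was 53.9% over the KO peaks (33.9 to 77.0%) and 52.5% over the WT peaks (34.5 to 75%). Windows of 150 bases tiled over all gene bodies had a median of 42.7%, with quartiles of 36.7 and 48.7%. These windows were not cleared of L1 and LTR repeats, whereas the rule took out peaks in them, so the comparison is a description. In the central 150 bases of the peak, 91 of 116 KO peaks (78.4%) and 111 of 126 WT peaks (88.1%) were above that window median. Among intronic peaks these shares were 74.6% in KO and 88.9% in WT, a difference that was not tested. For exonic peaks alone, the median over the whole peak was 58.4% in KO and 55.7% in WT, and for intronic peaks it was 52.3% in both lists. Intergenic peaks outside L1 and LTR had a median of 45.0% in KO and 46.6% in WT. The highest values were in *Bahcc1* exon 2 (77.0%, KO), at the end of *Gdf1* (75.3%, KO), in exon 3 of *Nr2f6*, a nuclear receptor (75%, WT), in the 5′ UTR of *Ltbp3* (75%, KO) and in *Jund*, an AP-1 transcription factor encoded by 1 exon (74.7%, KO).

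**Figure D2:**
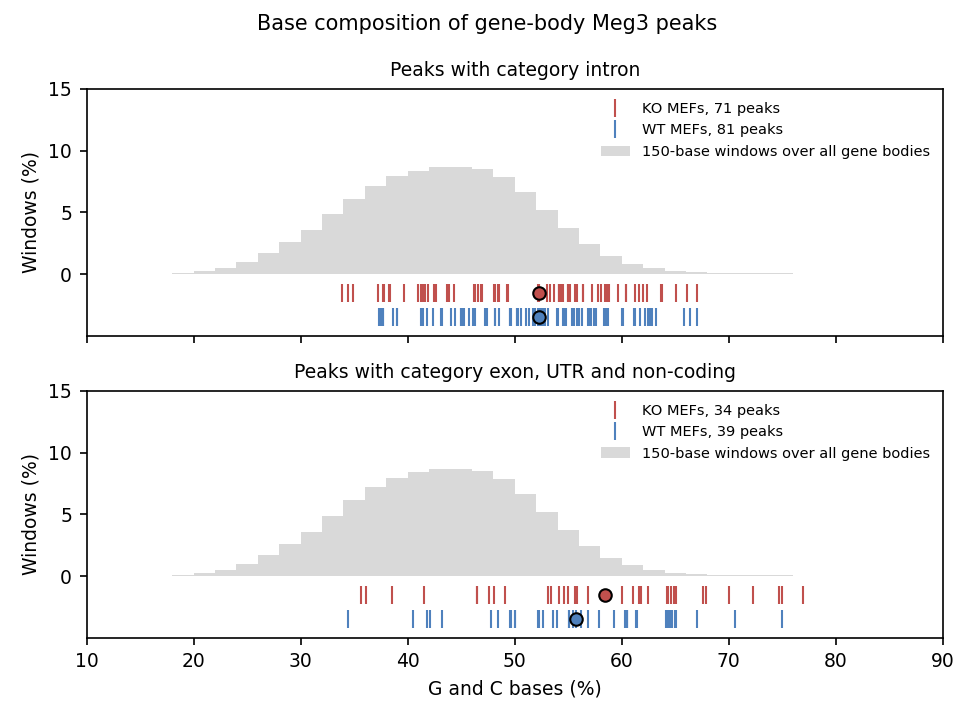
G and C content (%) of intronic peaks (upper) and of exonic peaks including UTRs and non-coding transcripts (lower). Each tick is 1 peak of KO (red) or WT (blue) MEFs and the circle is the median, below a histogram of all 150-base windows over gene bodies (grey, % of windows). Most ticks lie to the right of the middle of the histogram, whose median is 42.7%.

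Most peaks covered sequence that occurs once in the genome. The median 100-mer of the peak occurred once in GRCm38 in 105 of 116 KO peaks (90.5%, 83.8 to 94.6%) and 114 of 126 WT peaks (90.5%, 84.1 to 94.5%; Fisher's exact test, p = 1, adjusted p = 1). Among intergenic peaks under the same limits, 127 of 158 KO peaks (80.4%, 73.5 to 85.8%) and 90 of 117 WT peaks (76.9%, 68.5 to 83.6%) were single-copy. The difference was 13.6 percentage points in WT (Fisher's exact test, p = 0.00491; adjusted over 8 tests, p = 0.0393) and 10.1 points in KO (p = 0.0268, adjusted p = 0.107). In the same Fisher's exact test the WT call was lost without the *Myo1c* peaks (adjusted p = 0.0675), without chromosome 19 (adjusted p = 0.264), after merging within 1000 bp (adjusted p = 0.103) and at a TSS distance above 3000 bp (adjusted p = 0.0504). Among the peaks with repeated sequence, the median 100-mer occurred up to 28 times in *Snhg14*, 22 times in *Myo9a*, at a B2 SINE, and 13 times in *Calcoco2*, and their reads cannot be assigned to 1 position with certainty.

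HOMER named a SINE, a short retrotransposon, at 8 of 71 KO and 10 of 81 WT intronic peaks (11.3% and 12.3%), against 13.3% and 13.7% of intergenic peaks (adjusted p = 0.953 in both lists, Fisher's exact test). Simple repeats or low-complexity sequence were named at 2 KO intronic peaks (2.82%) and 8 WT intronic peaks (9.88%), against 3.80% and 8.55% of intergenic peaks (Fisher's exact test, adjusted p = 1 in KO and 0.953 in WT). The 30 bases at the centre of 4 of these peaks are shown, plus strand of GRCm38, with no base in capitals, as examples of the tandem repeats found. They are from *Heg1* (chr16:33757497-33757526) and *Frmd3* (chr4:74139441-74139470) in KO, and from *F13a1*, coagulation factor XIII A (chr13:36978744-36978773), and *Pard3* (chr8:127544466-127544495) in WT.
Heg1: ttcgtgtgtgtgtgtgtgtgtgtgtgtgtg
Frmd3: aaaggaaaggagaaaggaaaggagaaagga
F13a1: aggcagaggaggcagaggaggcagaggcag
Pard3: caccacacacacacacacacacacacacac

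Purine and dinucleotide tracts were searched on both strands of the central 150 bases. GAGAGAGA was present in 2 KO peaks (1.72%; *Cd244a*, *Snhg14*) and 2 WT peaks (1.59%; *Rara*, *Ccdc158*), against 2.63% of the 6641867 gene-body windows. TGTGTGTG was in 5 KO peaks (4.31%) and 10 WT peaks (7.94%), against 5.18% of windows. TGANTCA, an AP-1-like motif, was searched with any base at N. It was in 3 KO peaks (2.59%, in *Itln1*, *Pitpnm1* and *Abcc2*) and 3 WT peaks (2.38%, in *Sufu*, *Alad* and *Gm6370*), against 4.42% of windows. No motif is contained in another, and a match says only that the letters are there. The windows include L1 and LTR repeats here too.

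The peaks were crowded on a few chromosomes. Chromosome 19, which holds 2.88% of gene-body bases, carried 27 KO peaks (23.3%) and 35 WT peaks (27.8%), or 0.937 and 1.22 per Mb of gene body. Chromosome 17 carried 18 and 17, and chromosome 11 carried 12 and 12. Chromosome 8 carried 21 KO peaks in 19 genes and 6 WT peaks in 6 genes. Chromosome 13 carried 2 KO peaks in 2 genes and 18 WT peaks in 12 genes, 5 of them in *2410141K09Rik*. The spread of all peaks of each list over the chromosomes was not set beside these counts. Whether they are particular to gene-body peaks was therefore not tested. Chromosomes 12, the home of *Meg3*, and 18 carried none. Within chromosome 19, the window from 5 to 6 Mb held 16 peaks, 7 KO and 9 WT, in 13 genes, and it is the 13th richest of 2311 such windows by the number of RefSeq genes that start there (59).

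**Figure D3:**
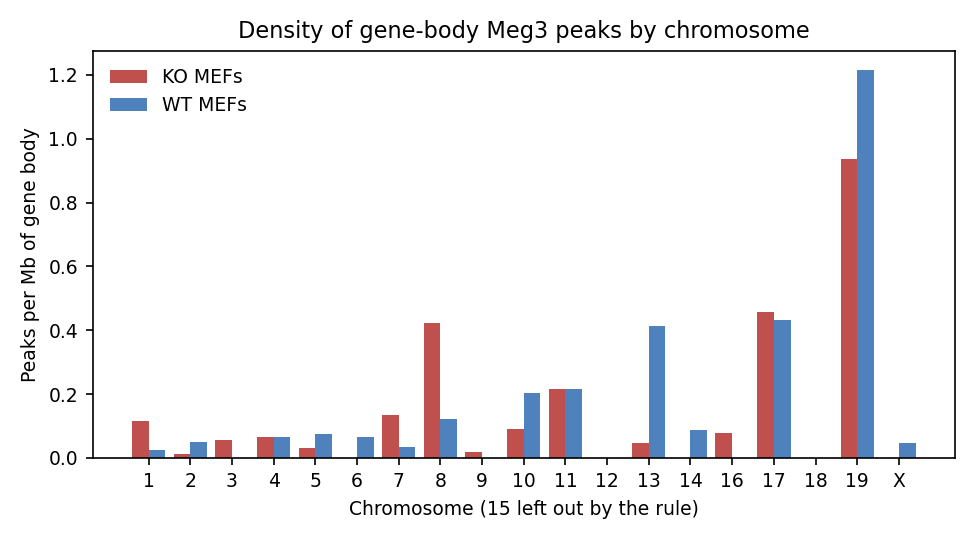
Gene-body peaks per Mb of gene body on each chromosome in KO (red) and WT (blue) MEFs, 1 list each. Chromosome 19 stands highest in both lists (0.937 and 1.22 per Mb), KO exceeds WT on chromosome 8 (0.424 against 0.121), and WT exceeds KO on chromosome 13 (0.413 against 0.0459). Peaks of other kinds are not counted.

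In that window, KO peaks were in *Rin1*, *Ccdc85b*, *Sipa1*, *Ltbp3*, *Pola2* and *Slc22a20*, and WT peaks in *Brms1*, *Yif1a*, *Pacs1*, *Ap5b1*, *Sipa1*, *Map3k11*, *Neat1*, *Frmd8* and *Pola2*. *Pola2* encodes a subunit of DNA polymerase α, and *Sipa1* a GTPase-activating protein for Rap. *Neat1*, the RNA scaffold of paraspeckles, carried 1 WT peak of 194 bp and no KO peak. The KO peaks of chromosome 8 included *Comp*, a cartilage matrix protein (intron 4 of 18), *Jund* (exon 1 of 1), *Mast3*, a kinase (exon 26 of 26 and intron 25 of 25), *Colgalt1*, a collagen galactosyltransferase (intron 3 of 11), and *Nfix*, a transcription factor (2 peaks in intron 2 of 9).

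By the transcript that HOMER named, the peaks lay in 190 genes, 98 in KO and 104 in WT, with 12 genes in both lists. Of 25126 curated RefSeq genes on these chromosomes, 0.39% carried a KO peak and 0.41% a WT peak. A single peak was found in 162 genes. The gene holding the peak was not the gene of the nearest TSS at 42 of 116 KO and 37 of 126 WT peaks, so that a list of nearest genes would name other genes there. Counting nearest genes and counting single-copy peaks kept each of these gene counts within 1.5 times of its value. Host genes were longer than the average gene, with a median longest transcript of 19481 bp in KO and 24125 bp in WT against 13515 bp over all genes. Longer genes have more bases to carry a peak, and the genes were not matched for it.

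Of the 606 genes on the lists examined, 2 carried a KO peak (0.330%) and 2 a WT peak (0.330%), beside 0.39% and 0.41% of all genes. Most of these 606 genes (383) are zinc finger genes named Zfp, so the pooled shares say little on the smaller lists. Of 29 TGF-β signalling genes measured, 1 carried a KO peak, *Ltbp3*, which binds latent TGF-β in the matrix, and none a WT peak. Of 33 phospholipase genes, 1 carried a WT peak, *Plaat3*, and none a KO peak. Of 17 nuclear or imprinted long non-coding RNAs, *Neat1* was the only carrier, in WT. That list did not include *Snhg14*, an imprinted long non-coding RNA described further on, which carried peaks in both lists. Of 383 zinc finger genes named Zfp, 1 carried a KO peak, *Zfp750*. No gene of the 11 Polycomb repressive complex 2 genes, 22 SWI/SNF genes, 36 actin cytoskeleton genes, 33 fibroblast matrix genes or 42 chondroitin, heparan and dermatan sulfate synthesis genes carried one. Only peaks within the limits given at the start were counted, which leaves out intergenic peaks, peaks near a TSS and those on chromosome 15. The paper reports KO *Meg3* peaks in an intergenic region at *Hs3st3b1* and within enhancers close to the *Pld5* promoter. The actin cytoskeleton list did not include the unconventional myosins *Myo1c*, *Myo9a*, *Myo9b* and *Myo16*, which carried peaks. A count of 1 is the smallest above none, and nothing particular to a list was read from it. *B3gat3*, a glucuronyltransferase of glycosaminoglycan synthesis, was the nearest gene of 1 KO peak that lay in another gene.

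*Myo1c*, a class I unconventional myosin that also has a nuclear isoform, carried 7 WT peaks and no KO peak. The nearest KO peak of any kind was 2.04 Mb away. The 7 peaks were 379, 189, 999, 1168, 376, 983 and 1064 bp wide from the 5′ to the 3′ end. The 4 that exceeded 900 bp were the only WT peaks of any kind that did so (the KO list had 3, none of them in this set), while the widest other WT gene-body peak was 624 bp (in *2410141K09Rik*) and the widest KO one was 458 bp. The peaks touched 25 of the 32 exons of transcript NM_008659, from exon 2 to exon 31, and held 19 of them whole. Exon bases made up 47.8% of the peaks against 20.9% of the stretch that they span. They held 78.8% of the coding bases of the transcript, but only 30 of its 2194 non-coding exon bases, and the last exon, most of which is 3′ UTR, held none. All 7 were single-copy.

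The edges of the *Myo1c* peaks were then measured against RefSeq exon borders, a comparison chosen after the values had been seen. At 9 of the 14 edges the left end of a peak lay within 5 bp of an exon start or the right end within 5 bp of an exon end. In the other 119 WT peaks this was so at 4 of 238 edges, and in the 116 KO peaks at 1 of 232. The median distance from an edge to such a border was 2 bp in *Myo1c*, 969.5 bp in the other WT peaks and 507.5 bp in the KO peaks. Both ends met a border in 4 *Myo1c* peaks and in no other peak. The lists alone cannot tell chromatin of this locus from spliced *Myo1c* coding sequence of another source, such as cDNA or a construct, and this was not tested. The WT counts that include these 7 peaks carry the same limit. To show the sequence, 30 bases across 1 intron to exon border inside each of 6 of these peaks are given, plus strand of GRCm38, which is the coding strand, with exon bases in capitals. They are exon 3 (chr11:75657738-75657767), exon 7 (chr11:75660418-75660447), exon 11 (chr11:75661719-75661748), exon 16 (chr11:75665678-75665707), exon 19 (chr11:75668395-75668424) and exon 27 (chr11:75671365-75671394).
exon 3: ccccccaacccccagACCTACATCGGTCCT
exon 7: tgctctttcttccagGGCCAGTGTGCCAAG
exon 11: actggccggccctagGACGCTGAGAGCCCC
exon 16: gttctccctttccagGGTTTCTGGATAAAA
exon 19: tttgtttcctctcagGTCGCTTTGATGAGG
exon 27: ctctctccgttgtagGCACAGAGGAGATCA

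**Figure D4:**
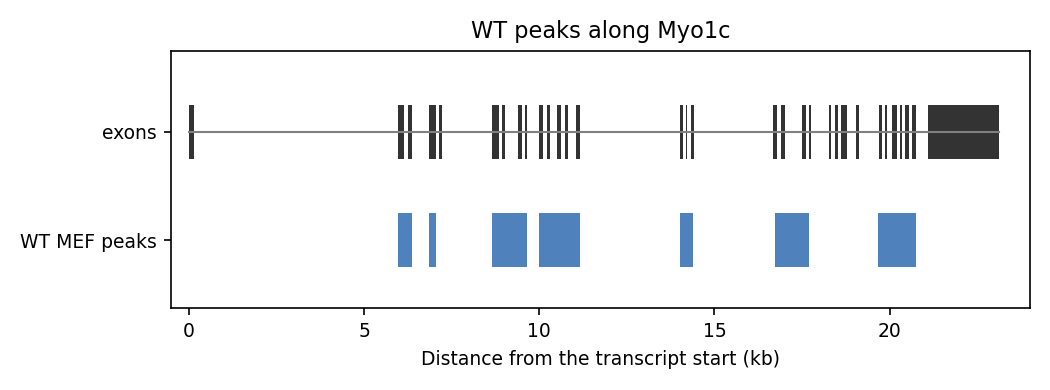
The 32 exons of *Myo1c* (black, transcript NM_008659) and the 7 WT peaks (blue) by distance from the transcript start in kb; the KO list has no peak in this interval. The peaks cover clusters of exons and leave out the first and the last exon, and 9 of their 14 edges lie within 5 bp of an exon border.

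*Snhg14*, an imprinted long non-coding RNA that hosts clusters of small nucleolar RNAs in the region affected in Prader-Willi and Angelman syndromes, carried 5 KO and 2 WT peaks. They were all intronic and lay between 70.998% and 92.2% of the way along its transcript of 1177441 bp. A KO peak (intron 147 of 171) and a WT peak in the same intron were 167 bp apart, and the second WT peak was 775 bp from that KO peak. The other 4 KO peaks had no WT peak within 100 kb. Of these, 3 KO peaks and 1 WT peak had a repeated median 100-mer (2 to 28 copies), so those positions are uncertain.

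*Bahcc1*, which encodes a BAH domain protein, carried 4 KO peaks and 1 WT peak. The KO peaks were 417 bp (exon 2 of 28), 242 bp (intron 2 of 27), 194 bp (intron 3 of 27) and 408 bp (intron 9 of 27) wide. The WT peak, 269 bp wide, lay in intron 2 of 27 between them, 9948 bp from the nearest KO peak. *Sufu*, a negative regulator of Hedgehog signalling, carried 1 KO peak in intron 3 of 11 and 3 WT peaks, 2 in intron 10 of 11 and 1 in the 3′ UTR. The *Sufu* KO peak was 37028 bp from the nearest WT peak, and each *Sufu* WT peak was at least 17066 bp from any KO peak. *Atg2a*, a lipid transfer protein of autophagy, carried 1 KO and 2 WT peaks, all 165 to 178 bp wide.

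**Figure D5:**
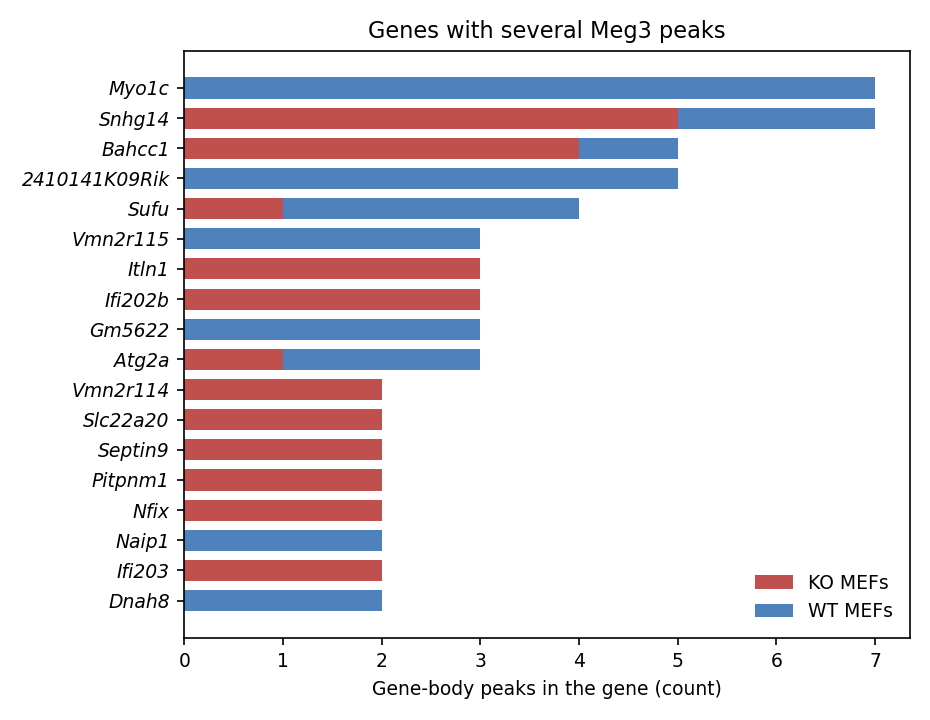
Number of gene-body peaks in each of the 18 genes that carried at least 2 in 1 list, or at least 3 over both, after peaks within 1000 bp were joined, with KO (red) and WT (blue) peaks stacked as deposited. *Snhg14* and *Myo1c* carry 7 each, and 14 of the 18 genes have peaks in 1 list only. Of all 190 genes with a peak, 12 have peaks in both lists.

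Among the 18 genes with several peaks by this rule, *Snhg14*, *Bahcc1*, *Atg2a* and *Sufu* had peaks in both lists. The genes with KO peaks only were *Ifi202b* and *Ifi203*, interferon-inducible genes that neighbour each other on chromosome 1, *Itln1*, an intelectin, *Nfix*, *Pitpnm1*, *Septin9*, *Slc22a20* and *Vmn2r114*. Those with WT peaks only were *Myo1c*, *2410141K09Rik*, *Dnah8*, an axonemal dynein, *Gm5622*, *Naip1*, an inflammasome sensor of bacterial proteins, and *Vmn2r115*. The vomeronasal receptors *Vmn2r114* and *Vmn2r115* neighbour each other on chromosome 17, with KO peaks in the former and WT peaks in the latter. *2410141K09Rik*, in a cluster of zinc finger genes on chromosome 13, carried 5 WT peaks of 189 to 624 bp. With 1 list per genotype, a gene in 1 list only may have a peak just under the threshold in the other.

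No gene-body peak of one list overlapped a peak of the other, and the closest pair was 22 bp apart. The overlap among all peaks of the lists is not given here, so this absence is not shown to be particular to gene-body peaks. The authors classed peaks as unique or shared before deposit, and a shared class of peaks may be missing from the lists, so nothing on the number of common sites follows from the absence of overlap. Peaks of the other list within 1000 bp were found at 5 KO peaks (4.31%, 1.85 to 9.69%) and 8 WT peaks (6.35%, 3.25 to 12.03%). For intergenic peaks under the same limits the shares were 10.1% and 12.8%, and the differences did not pass the test (Fisher's exact test, p = 0.106 in KO and 0.123 in WT, adjusted p = 0.247 in both). The 5 KO peaks each had a WT peak of the same gene beside them. The gaps were 22 bp in *Ccdc127* (exon 3 of 3), 67 bp in *Gm6034* (intron 1 of 2), 167 bp in *Snhg14*, 397 bp in *Sipa1* and 541 bp in *5031410I06Rik*. A WT peak in the 3′ UTR of *Eif4a3l1* was 977 bp from a KO peak outside these limits.

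At *Ccdc127* the peaks of the lists alternated: a WT peak of 201 bp, then 22 bp on a KO peak of 282 bp, then 432 bp on a WT peak of 229 bp, all within the last exon. At *Gm6034*, a gene of the major histocompatibility region, a KO peak of 227 bp and a WT peak of 218 bp lay side by side in the first intron. The other genes in both lists were *Nfic*, *Pola2*, *Cd244a*, a receptor of natural killer cells, and *Pkd1*, whose KO and WT peaks lay over 1000 bp apart.

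The always-reported genes were not carriers, with the exception of *Neat1* in WT. *Meg3* itself, *Malat1*, *H19* and *Actb*, the gene deleted in the KO MEFs, held no peak of any kind in either list. Since peaks shared by the genotypes may be missing from the lists, this does not show that these loci were not recovered. The nearest peak to *Meg3* was 967115 bp away in WT and 4053719 bp away in KO.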

How the data were processed

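Reads had been trimmed (Trimmomatic), aligned to GRCm38 (BWA-MEM), deduplicated (Picard) and pooled by the authors over 4 libraries per genotype from odd and even probe sets. MACS2 called peaks against input and HOMER compared and annotated them. Versions are not given in the sources used here. The deposited positions and TSS distances are in bp, and the deposited score is 1 for every peak. Members, gene lists and tests were chosen with earlier results of these data known. Host genes are those of the transcript HOMER named (234 of 242 peaks placed in the GRCm38.p6 RefSeq annotation). For 5 the nearest gene was used, 2 named a transcript placed elsewhere and 1 was unmatched. Shares have Wilson 95% intervals and were compared by Fisher's exact test (two-sided), adjusted by Benjamini-Hochberg. Copies of each 100-mer and 31-mer were counted in chromosomes 1 to 19 and X, both strands. Genes named are those with several peaks, with peaks beside the other list, on the gene lists, farthest from a TSS or next to the limit, and 5 fixed genes, with others named as examples after their values were seen. The alternatives were another TSS distance, merging, single-copy peaks, chromosome 15, chromosome 19, L1 and LTR, and RefSeq categories, with 1 peak per gene and leaving out *Myo1c* added after the data were seen. Counting, gaps and tests were tested on simulated data. Scripts ran in Python 3.11.15 with scipy 1.17.1, pandas 2.3.3, matplotlib 3.10.9, numpy 2.4.6 and numba 0.67.0. The result for 1 of the motifs searched is not reported here.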

Additional observations from a re-analysis of the deposited data

How the results depend on the processing

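No paired analysis was possible because each genotype has 1 pooled list, and no replicate could be left out. Counts of genes stayed within 1.5 times under nearest genes, single-copy peaks and merging. Differences are KO minus WT, or gene-body minus intergenic, in percentage points.

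The lower KO share of gene-body peaks kept its direction but lost its call with no minimum TSS distance (-2.04), after merging within 1000 bp (-2.47), with single-copy peaks only (-2.67), without chromosome 19 (-2.10), with L1 and LTR kept (-0.64) and, in settings chosen after seeing the data, with 1 peak per host gene (-2.30) and without *Myo1c* (-2.44). It was larger with chromosome 15 kept (-5.68, adjusted p = 5.98e-05, Fisher's exact test). Reversals, all of differences that did not pass the test in the main setting, were as follows. The exon share turned with no minimum TSS distance (3.78), merging (0.44) and 1 peak per gene (5.79), the intron share with L1 and LTR kept (2.95), and the first-intron share with 1 peak per gene (2.06). The single-copy share turned above 3000 bp (-0.15), with no minimum distance (-1.81), merged (-0.42), with chromosome 15 kept (-1.38) and with L1 and LTR kept (-11.5, adjusted p = 0.0143, Fisher's exact test). Against intergenic peaks, the single-copy difference in WT lost its call above 3000 bp (14.4), without chromosome 19 (12.3), merged (12.03) and without *Myo1c* (13.0). The simple repeat difference in KO turned above 3000 bp (0.034) and without chromosome 19 (0.35), and the SINE difference in WT above 3000 bp (0.13). With a gap of up to 5000 bp, 15 KO and 19 WT peaks had a peak of the other list beside them. The cause of these changes was not tested.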
